A study of Mus musculus with 14 samples.

Results

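The 8 genes described here are markers of fetal liver and of hepatocellular carcinoma: Afp, Gpc3, Cd24a, Prom1, Golm1, Mdk, Scd2 and Robo1. They were chosen by name, and the estimated counts of their RefSeq transcripts were summed per gene, which gave 8 of the 30436 features of the series. RNA was sequenced from liver tissue of male C3HeB/FeJ mice, an inbred strain in which liver tumours arise spontaneously with age. Of the 14 samples, 6 are tumours labelled Grow, 4 are tumours labelled Regress and 4 are normal livers labelled Normal. All were 18 months old, after a check for tumours at 10 months and 6 cycles of 28 days with injections on 5 days each. Among the Grow tumours, Grow 1 and Grow 5 received the solvent DMSO. Grow 2, Grow 3 and Grow 4 received 85 mg/kg SAHA (suberoylanilide hydroxamic acid, which inhibits histone deacetylases) with 22 mg/kg TMZ (temozolomide, which alkylates DNA), and Grow 6 received 100 mg/kg SAHA alone. Among the Regress tumours, Regress 1 and Regress 3 received 31 mg/kg TMZ, Regress 2 received phosphate citrate buffer and Regress 4 received DMSO. The 4 Normal livers received phosphate citrate buffer. The labels state neither how growth or regression was judged nor whether samples of a group are from separate animals, so the p-values reflect only how much these samples varied.

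In the fetal liver, hepatoblasts make secreted and surface proteins that the adult organ keeps at a low level, and some of these genes become active again in liver tumours. Alpha-fetoprotein is the classic case: it is a main plasma protein of the fetus, its gene is shut down after birth, and its level in human serum is used to follow hepatocellular carcinoma. Glypican-3 and Golgi membrane protein 1 are likewise used as tissue or serum markers in human patients, while prominin-1 and CD24 are surface proteins used to mark progenitor-like cells.

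Library totals ranged from 4.71 to 13.39 M (mega) estimated counts. A list of 12 hepatocyte genes summed to 62790 to 297048 CPM (counts scaled by edgeR's cpm function to the adjusted library size) in Grow, 103818 to 222165 CPM in Regress and 92732 to 132409 CPM in Normal, so every library carried a strong hepatocyte signal. Grow 3 and Grow 4 were the most alike Grow libraries, with a median absolute difference of 0.14 on the log2 scale against 0.29 to 0.73 in other Grow pairs. Their counts still differed by more than counting noise (chi-square per degree of freedom 19.9). That does not show whether they are from separate tumours or animals. They were kept as separate samples, and fits with the 2 summed are given as an alternative. Regress 1 stood apart for the marker genes: its 7 tested markers had a median log2 difference of -0.72 from the mean of the Normal livers, against 1.91 to 6.18 in the other 9 tumours. In the labels, Normal 4 and Regress 2 have a sample code in common.

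The promoters of Afp and of 3 markers that varied together across the tumours, Gpc3, Prom1 and Golm1, are shown because the genes differ in their start regions although the levels of the last 3 varied together. RefSeq (GRCm38.p6) gave 300 bases around the start for 5 of the 8 genes, with 2 windows for Prom1, of which the one farther upstream is shown. Capitals mark matches to 6 searched motifs on either strand. The TATA box was searched as TATAAA and the GC box as GGGCGG, and a core motif of FOXA factors was searched as TGTTTAC. The element bound by NR5A2, a regulator of Afp, was searched as TCAAGGTCA. The core of TCF/LEF sites, which answer to Wnt signalling, was searched as ATCAAAG. The AP-1 element was searched as TGANTCA, where N is any base.

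Afp, chr5:90490464-90490763, plus strand: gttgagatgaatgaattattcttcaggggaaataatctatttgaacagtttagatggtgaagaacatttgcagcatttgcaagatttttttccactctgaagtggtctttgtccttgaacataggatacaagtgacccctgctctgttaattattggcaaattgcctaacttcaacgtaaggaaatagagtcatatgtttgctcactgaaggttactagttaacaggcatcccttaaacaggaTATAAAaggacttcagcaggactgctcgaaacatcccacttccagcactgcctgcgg

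Gpc3, chrX:52613925-52614224, minus strand: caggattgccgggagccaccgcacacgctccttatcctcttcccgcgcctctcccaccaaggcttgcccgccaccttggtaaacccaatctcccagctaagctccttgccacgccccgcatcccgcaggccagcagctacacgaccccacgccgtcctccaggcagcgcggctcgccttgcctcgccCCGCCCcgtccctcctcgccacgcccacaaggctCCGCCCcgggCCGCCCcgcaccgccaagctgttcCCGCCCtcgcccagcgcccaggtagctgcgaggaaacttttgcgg

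Prom1, chr5:44101687-44101986, minus strand: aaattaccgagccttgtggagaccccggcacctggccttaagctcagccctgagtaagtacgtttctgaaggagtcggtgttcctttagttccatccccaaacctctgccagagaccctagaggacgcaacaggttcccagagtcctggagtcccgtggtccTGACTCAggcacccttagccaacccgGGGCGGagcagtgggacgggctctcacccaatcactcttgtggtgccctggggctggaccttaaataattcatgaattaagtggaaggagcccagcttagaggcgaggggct

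Golm1, chr13:59675735-59676034, minus strand: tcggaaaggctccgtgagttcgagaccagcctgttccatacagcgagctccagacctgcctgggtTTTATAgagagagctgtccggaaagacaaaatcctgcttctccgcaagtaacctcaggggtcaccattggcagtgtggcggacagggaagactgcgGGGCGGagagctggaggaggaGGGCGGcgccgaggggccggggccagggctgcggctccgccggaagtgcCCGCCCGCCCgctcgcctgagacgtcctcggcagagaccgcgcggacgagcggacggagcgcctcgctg

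The Afp window held a TATA box, a motif in 13.6% of all 32851 promoters of the table, and no GC box, and its GC content was 40.0% against a median of 52.7% over all promoters. The Gpc3 window was the reverse, with 4 GC boxes (a motif in 35.7% of promoters), no TATA box and a GC content of 70.7%. The Prom1 window shown held a GC box and an AP-1 element, which 7.81% of promoters contain, while its other window (chr5:44094719-44095018, minus strand) held an AP-1 element and no GC box. Golm1 held a TATA box, read on the opposite strand, and 4 GC boxes, of which a pair overlap. The Robo1 promoter held no match to any of the 6 motifs. A match describes letters in the window and does not show that a factor binds there.

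Afp and Gpc3, the secreted and the surface marker of fetal hepatoblasts, showed the largest differences from normal liver among the 7 tested markers. Afp stood at 23.2 CPM at its lowest, 76.0 at the median and 306 at its highest in the 6 Grow tumours. In Regress 1 to 4 it stood at 0.591, 222, 62.8 and 430.4 CPM, and in Normal 1 to 4 at 1.40, 0.876, 0.299 and 4.51 CPM. All tumours but Regress 1 lay above the highest normal liver, and so for none of the 7 tested markers did all 10 tumours do so, as 1.09% of all tested features did. Without Regress 1, the other 9 tumours did so for 4 of the 7 (Afp, Gpc3, Prom1 and Scd2), against 3.28% of features. The means were 112 ± 99.7 CPM in Grow (SD, n = 6), 179 ± 192 CPM in Regress (SD, n = 4) and 1.77 ± 1.88 CPM in Normal (SD, n = 4). In tumours against normal liver, with Grow and Regress weighted equally in the contrast, Afp rose by 6.29 ± 1.36 on the log2 scale (SE, adjusted p = 0.0328 by edgeR's quasi-likelihood test with Benjamini-Hochberg adjustment). Gpc3, a heparan sulfate proteoglycan anchored in the membrane, ran from 10.7 through a median of 58.2 to 291 CPM in Grow. It stood at 0.197, 48.6, 48.4 and 295 CPM in Regress 1 to 4 and at 1.93, 0.876, 1.64 and 1.02 CPM in Normal 1 to 4. Grow 3 and Grow 4 were the lowest Grow tumours, at 10.7 and 11.1 CPM, yet above all normal livers, and only Regress 1 among the 10 tumours did not lie above them. Gpc3 rose by 6.26 ± 1.51 on the log2 scale (SE, adjusted p = 0.0457, edgeR).

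The progenitor markers Prom1 and Cd24a behaved differently from each other. Prom1 encodes prominin-1 (CD133), a membrane protein of cell protrusions. Its level ran from 3.77 through a median of 15.9 to 32.3 CPM in Grow. It stood at 0.197, 5.14, 11.1 and 59.5 CPM in Regress 1 to 4 and at 0.176, 0.350, 0.897 and 0.873 CPM in Normal 1 to 4. Again 9 of 10 tumours lay above every normal liver, and Prom1 rose by 4.86 ± 1.17 on the log2 scale in tumours (SE, adjusted p = 0.0444, edgeR). Cd24a, which encodes the mouse counterpart of human CD24, a small sialoglycoprotein of the cell surface, overlapped between the groups. It ran from 1.01 through a median of 2.20 to 9.52 CPM in Grow, stood at 1.97, 3.56, 9.79 and 8.18 CPM in Regress 1 to 4, and at 2.28, 3.15, 0.299 and 1.31 CPM in Normal 1 to 4. Its highest values were in Regress 3, Grow 1 and Regress 4, and 5 of 10 tumours lay within the range of the normal livers. The tumour difference was 1.36 ± 0.68 on the log2 scale (SE, adjusted p = 0.318, edgeR), which did not pass the threshold.

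Golm1 and Scd2 were high in most tumours, but their tests for all tumours missed the threshold. Golm1 encodes a Golgi membrane protein that can be cleaved and secreted. Its level ran from 3.07 through a median of 36.3 to 75.5 CPM in Grow. It stood at 1.97, 26.1, 27.0 and 73.6 CPM in Regress 1 to 4 and at 4.21, 2.45, 3.14 and 2.76 CPM in Normal 1 to 4. Above every normal liver lay 7 tumours, whereas Grow 3, at 3.28 CPM, and Grow 4, at 3.07 CPM, lay within the normal range and Regress 1 below it. The tumour difference was 3.43 ± 0.98 on the log2 scale (SE, adjusted p = 0.0755, edgeR). Scd2 encodes a stearoyl-CoA desaturase that makes monounsaturated fatty acids and is the main isoform of fetal and newborn mouse liver, whereas Scd1 is that of the adult liver. Scd2 ran from 22.1 through a median of 146 to 265 CPM in Grow. It stood at 2.17, 77.9, 13.4 and 433 CPM in Regress 1 to 4 and at 7.37, 4.91, 7.77 and 3.64 CPM in Normal 1 to 4. Every tumour but Regress 1 lay above the normal range, and the difference was 4.52 ± 1.22 on the log2 scale (SE, adjusted p = 0.0635, edgeR). Scd1 stood at 9878 ± 7909 CPM in Grow (SD, n = 6), 5521 ± 2208 CPM in Regress (SD, n = 4) and 9846 ± 4924 CPM in Normal (SD, n = 4), and its tumour difference of -0.41 ± 0.52 on the log2 scale (SE) did not pass (adjusted p = 0.792, edgeR). Since the desaturase genes are similar in sequence, estimated counts can be split between them.

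Robo1 and Mdk were the lowest markers in tumours once transcript length was taken into account. Robo1 encodes a receptor for the secreted Slit guidance proteins. It ran from 0.707 through a median of 5.65 to 10.5 CPM in Grow. It stood at 1.58, 2.37, 0.515 and 24.1 CPM in Regress 1 to 4 and at 2.11, 0.526, 1.64 and 1.02 CPM in Normal 1 to 4. The 4 highest tumours, Regress 4, Grow 6, Grow 1 and Grow 5, received no TMZ, and 6 of 10 tumours lay above every normal liver. The tumour difference of 2.28 ± 0.98 on the log2 scale (SE) did not pass (adjusted p = 0.233, edgeR), and it was 1.15 without Regress 4. Mdk encodes midkine, a heparin-binding growth factor of the embryo, and was close to undetected in most libraries. It had 42 counts (5.93 CPM) in Regress 4, 3 counts in Grow 6 and 1 count each in Grow 1, Grow 3, Grow 5 and Normal 3. In the other 8 libraries it had 0 counts, which allows a level of up to 0.354 to 0.773 CPM (3 counts, counting error only). Mdk did not pass the low-count filter and has no test, so 7 of the 8 markers were tested.

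**Figure D1:**
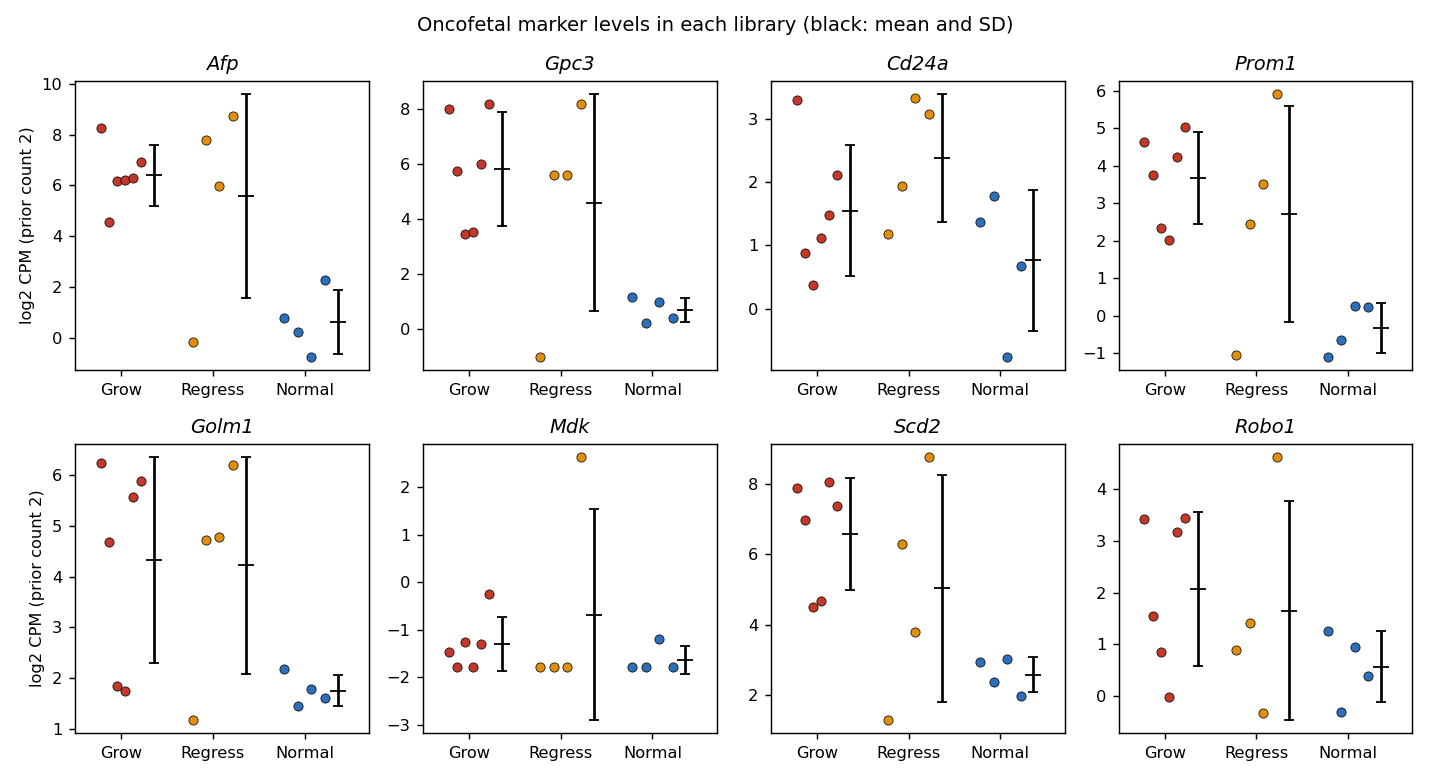
Level of each of the 8 genes (log2 CPM, prior count 2, y axis) in the Grow, Regress and Normal libraries (x axis), with points for single libraries and a black bar for the mean and SD. For Afp, Gpc3, Prom1 and Scd2 the 6 Grow tumours and 3 of the 4 Regress tumours lie above the 4 normal livers, and the lowest Regress point is Regress 1.

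Among the 7 tested markers, 3 were called higher in tumours (Afp, Gpc3 and Prom1) and 0 lower. Over all 12300 tested features 2.32% were called in either direction, 1.59% higher and 0.732% lower. The median log2 fold change was 4.52 over the 7 tested markers and 0.01 over all tested features. The markers were picked as known tumour genes, with earlier results of these data known, so their direction is not independent evidence. The calls rested on few libraries. Leaving out Regress 1 gave 5 called markers, with Golm1 and Scd2 added (7.84% of features called). Leaving out Grow 5, Grow 6 or any of the 4 Normal livers gave 0 called markers, with 0% to 0.972% of features called. Leaving out Grow 1, Regress 2 or Regress 3 gave 1 (Afp), with 0.938% to 1.52% of features called, and leaving out Regress 4 gave 2 (Afp and Prom1; 2.26%). Leaving out Normal 4 and Regress 2 together, the libraries that share a code, gave 0 called markers and 0 called features (1493 at an unadjusted p under 0.05, edgeR). With limma-voom, and with edgeR without the low-count filter, 0 markers and 1.03% of features were called, and with DESeq2 there were 5 markers and 8.58% of features. With only the 4 tumours given DMSO or buffer set against the normal livers, 6 of 7 markers were called, all but Cd24a (7.5% of features called).

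In Grow against Normal, Afp was the only marker called, at a log2 fold change of 5.96 ± 1.36 (SE, adjusted p = 0.0424, edgeR), while 1.76% of all features were called and 1.12% were called higher. Gpc3 (6.37 ± 1.54, SE, adjusted p = 0.0503, edgeR) and Prom1 (4.73 ± 1.19, SE, adjusted p = 0.0566, edgeR) lay just past the threshold. Scd2, at 4.56 ± 1.24, and Golm1, at 3.50 ± 1.02 on the log2 scale (SE), had adjusted p of 0.0704 and 0.0835 with edgeR. For Afp, Gpc3, Prom1 and Scd2 all 6 Grow tumours lay above all 4 normal livers, as did 5.27% of all tested features. Regress 1 enters this contrast through the shared spread, the low-count filter, the scaling and the adjustment over all tested features. Without it 5 markers were called (4.69% of features), and without Regress 4 there were 4 (5.2% of features). The Afp call was kept without Grow 2 and was lost, leaving 0 called markers, without any other Grow library, Regress 2, Regress 3 or any Normal library, and with Grow 3 and Grow 4 summed into 1 sample.

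In Regress against Normal, 0 markers were called, and 0.0244% of all features (3 of 12300) were, while all 7 tested markers had an unadjusted p under 0.05, as did 1988 features. The log2 fold changes were of the same order as in Grow: 6.63 ± 1.42 (SE) for Afp, 6.15 ± 1.56 for Gpc3, 4.98 ± 1.23 for Prom1, 4.47 ± 1.27 for Scd2 and 3.36 ± 1.05 for Golm1. Their adjusted p with edgeR ran from 0.0569 for Afp to 0.131 for Golm1. Robo1 (2.45 ± 1.08, SE) and Cd24a (1.74 ± 0.77, SE) had adjusted p of 0.273 and 0.276 with edgeR. No marker had all 4 Regress tumours above all normal livers (2.72% of features did), since Regress 1 overlapped with or lay below the normal range for each. Without Regress 1, 5 markers were called higher and 5.28% of features were called: Afp, Gpc3, Prom1, Golm1 and Scd2, the first at 7.04 on the log2 scale (adjusted p = 0.00399, edgeR). DESeq2 called 5 markers and 5.79% of features with all 4 Regress tumours in the fit. Some of these values rested on Regress 4. Without it the log2 fold change was 0.19 for Robo1, 2.40 for Scd2 and 3.15 for Prom1, and 0 markers were called.

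Regress and Grow tumours were not told apart by any marker. In Regress against Grow, 0 markers and 0 of all 12300 features (0%) were called by edgeR, with 0 markers and 1230 features at an unadjusted p under 0.05, and DESeq2 called 0 markers and 31 features. Without Regress 4, edgeR called 1249 features and still 0 markers, at log2 differences down to -2.17 for Scd2, -1.91 for Robo1 and -1.82 for Gpc3. The log2 differences were 0.67 ± 0.98 (SE) for Afp, 0.75 ± 0.66 for Cd24a, 0.34 ± 0.89 for Robo1 and 0.25 ± 0.87 for Prom1. They were -0.22 ± 1.10 for Gpc3, -0.14 ± 0.85 for Golm1 and -0.08 ± 1.00 for Scd2, and adjusted p ran from 0.605 to 0.973 over the 7 markers with edgeR. With standard errors near 1 on the log2 scale, a difference of either sign could not be told from 0 in these samples. Each of the 2 tumour groups was set against the same 4 normal livers, so their differences from Normal share those libraries.

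**Figure D2:**
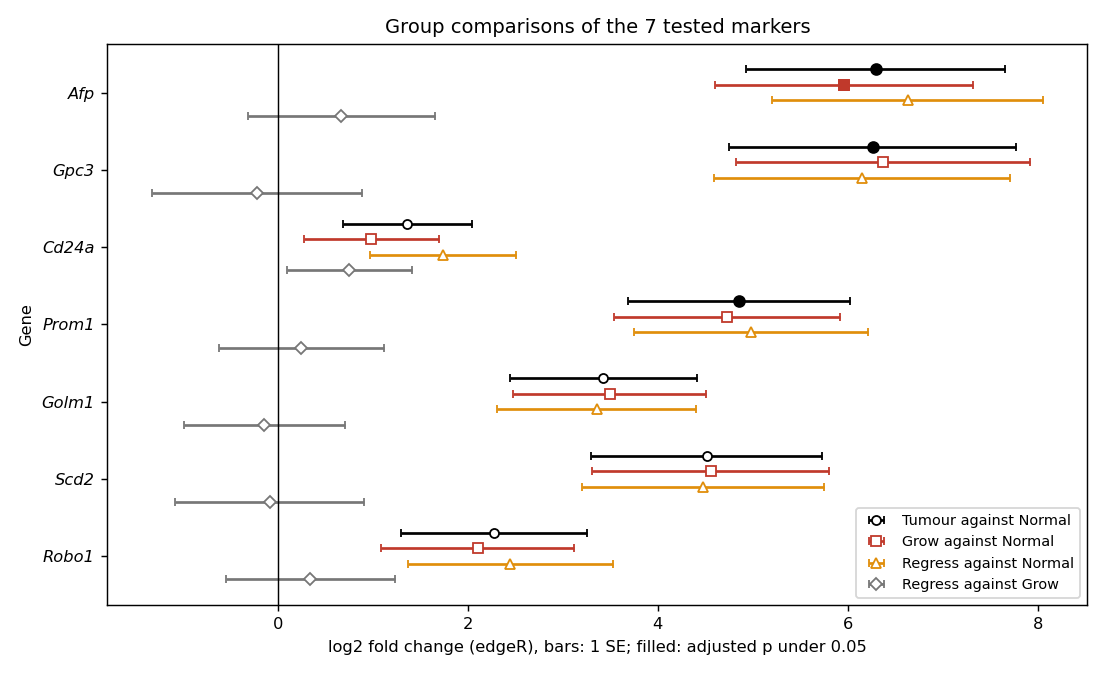
Log2 fold change (x axis, edgeR) of the 7 tested markers (y axis) in 4 group comparisons, with bars of 1 SE and filled symbols for an adjusted p under 0.05. The filled symbols are Afp, Gpc3 and Prom1 for all tumours and Afp for Grow, and the Regress against Grow values lie around 0.

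Profiles of markers, set against the mean of the normal livers, differed between tumours, although some tumours had the same markers above the normal range. Grow 1, Grow 6, Regress 2 and Regress 4 had all 7 tested markers above the highest normal liver. Grow 2 and Grow 5 had 6 of 7, with Cd24a the exception, and Regress 3 also had 6, with Robo1 below the lowest normal liver. Grow 3 and Grow 4 had the same 4 (Afp, Gpc3, Prom1 and Scd2). Regress 1 had 0 above the highest normal liver and 3 below the lowest, namely Gpc3, Golm1 and Scd2. Between 22.0% and 29.8% of all tested features lay above the highest normal liver in a given tumour, 26.6% in Regress 1. Afp was the marker farthest above normal in 7 tumours, by 5.36 to 8.13 on the log2 scale, and Gpc3 in Grow 2, by 5.06, and Grow 6, by 7.51. In Regress 1 the largest difference was 0.41, for Cd24a. Grow 3 and Grow 4 kept Afp 5.57 and 5.61 above normal on the log2 scale, close to the 5.66 of Grow 5, while their Golm1 stood at 0.08 and -0.01 against 3.81 in Grow 5. Their Gpc3 stood at 2.78 and 2.83 against 5.32 in Grow 5.

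**Figure D3:**
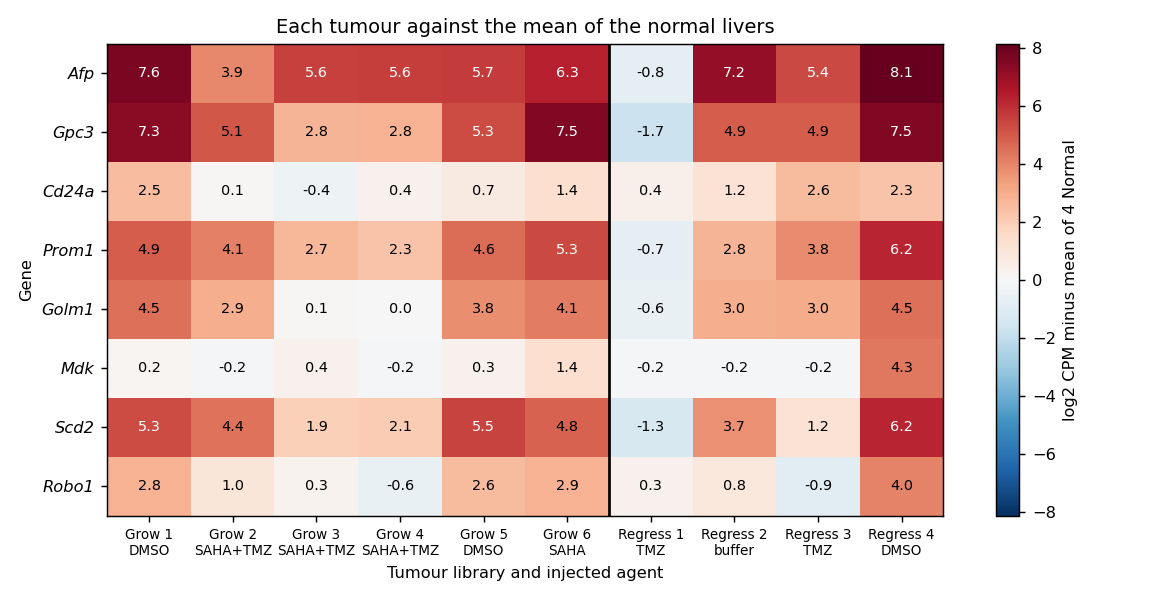
Log2 CPM of the 8 genes (y axis) in each of the 10 tumours (x axis, with the injected agent) minus the mean of the 4 normal livers, as a colour scale with the value printed. Regress 1 stands at -1.72 for Gpc3, Grow 3 and Grow 4 share high Afp with Golm1 near 0, and Mdk stands out in Regress 4 at 4.27.

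Per kilobase of transcript, the order of the markers differed between tumours and normal liver. By median, Grow tumours had Afp at 36.8 CPM per kb, Scd2 at 26.7, Gpc3 at 26.3, Golm1 at 9.19, Prom1 at 4.40, Cd24a at 1.21, Robo1 at 0.748 and Mdk at 0.121. Regress tumours had Afp at 69.0 CPM per kb, Gpc3 at 21.9, Scd2 at 8.37, Golm1 at 6.73, Cd24a at 3.23, Prom1 at 2.24, Robo1 at 0.261 and Mdk at 0. Normal livers had Scd2 at 1.13 CPM per kb, Cd24a at 0.989, Golm1 at 0.747, Gpc3 at 0.601, Afp at 0.553, Robo1 at 0.176, Prom1 at 0.169 and Mdk at 0. In Grow, Afp ranged from 11.3 to 148 CPM per kb, Scd2 from 4.05 to 48.6 and Gpc3 from 4.84 to 132, so these 3 neighbours did not differ beyond their spread. In Normal the first 5 likewise overlapped, Scd2 ranging from 0.667 to 1.42 CPM per kb and Afp from 0.145 to 2.19.

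Of the 8 genes, 3 had several RefSeq transcripts. In the 9 libraries with at least 20 Prom1 counts, the transcript NM_008935 carried a median of 97.8% of them, from 75.4% in Grow 4 to 100%. In the 11 libraries with at least 20 Golm1 counts, NM_001035122 carried 92.5% in Regress 4 and 98.3% to 100% in the others. All Mdk counts of Regress 4 were assigned to NM_001012336. Estimated counts can be shifted between transcripts that share exons, so these shares are those of the authors' assignment.

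Tumours from animals given TMZ had lower fitted values of all 7 tested markers than tumours without TMZ, but no difference passed the test. The 5 tumours with TMZ were Grow 2, Grow 3, Grow 4, Regress 1 and Regress 3, and the 5 without were Grow 1, Grow 5, Grow 6, Regress 2 and Regress 4. With the tumour group in the model, edgeR called 0 markers and 0% of all features, and 6 markers (all tested but Cd24a) were among the 1704 features at an unadjusted p under 0.05. Robo1 had the smallest p: it averaged 1.39 ± 0.840 CPM with TMZ and 11.2 ± 7.94 CPM without (SD, n = 5 each), a log2 difference of -2.97 ± 0.59 (SE, adjusted p = 0.0672, edgeR). The sets overlapped in 1 library each, Grow 2 with TMZ at 2.63 CPM and Regress 2 without at 2.37 CPM. Scd2 averaged 37.7 ± 50.1 CPM with TMZ and 235 ± 132 CPM without (SD, n = 5 each), a difference of -3.09 ± 0.81 (SE, adjusted p = 0.133, edgeR). Grow 2, at 126 CPM, was the only tumour with TMZ above the lowest without, Regress 2 at 77.9 CPM. Gpc3 averaged 24.7 ± 24.2 CPM with TMZ and 191 ± 124 CPM without (SD, n = 5 each; -2.96 ± 0.88, SE, adjusted p = 0.184, edgeR). Golm1 averaged 12.2 ± 12.9 CPM with TMZ and 56.2 ± 20.5 CPM without (SD, n = 5 each; -2.23 ± 0.67, SE, adjusted p = 0.184, edgeR). Afp averaged 46.8 ± 33.1 CPM with TMZ, from 0.591 to 74.6, and 231 ± 142 CPM without (SD, n = 5 each), from 77.4 to 430.4, so that its sets did not overlap (0.967% of all features lay lower in all 5 tumours with TMZ). Its fitted difference was -2.27 ± 0.88 on the log2 scale (SE, adjusted p = 0.277, edgeR). Prom1 (-2.09 ± 0.73, SE) and Cd24a (-1.11 ± 0.63, SE) had adjusted p of 0.238 and 0.441 with edgeR. The median over the 7 tested markers was -2.27 on the log2 scale, against -0.03 over all tested features.

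DESeq2 called 4 markers lower with TMZ (Gpc3, Golm1, Scd2 and Robo1; 3.77% of features called), and so did edgeR without Grow 2 (6.01% of features called). Without Regress 1, edgeR called 0 markers and 4 features, and the differences ran from -3.02 for Robo1 to -0.96 for Cd24a. With Grow 3 and Grow 4 summed, 0 markers were called and the differences ran from -2.97 for Scd2 to -0.98 for Cd24a. Prom1 stood at -1.32 without Regress 4, and Cd24a at -0.56 without Grow 1 and -1.77 without Regress 3. The summed levels of 3 lists of cell type markers overlapped between the sets, but their medians differed. With edgeR, 0 genes of each list were called, as no feature was in this contrast. The 12 hepatocyte genes summed to 62790 to 225606 CPM with TMZ (median 103818) and 212208 to 297048 CPM without (median 239741). The albumin gene Alb made up 147522 CPM of that sum in Grow 2 and 187356 CPM in Grow 6. The 10 genes of bile duct cells summed to 36.6 to 403 CPM with TMZ (median 44.7) and 268 to 627 CPM without (median 375). Grow 3 and Grow 6 held these medians, and the gene Tspan8 made up 16.2 CPM and 311.9 CPM of them. The difference between the medians thus lay mostly in Tspan8 and does not describe the list as a whole. The 9 measured macrophage genes of 10 listed summed to 425 to 1174 CPM with TMZ (median 600) and 164 to 599 CPM without (median 358). By gene, the fitted TMZ difference was positive for 3 of 12 hepatocyte, 3 of 7 tested bile duct and 7 of 9 macrophage genes. The list medians were -0.42, -0.62 and 0.70 on the log2 scale, against -0.03 over all tested features. The part of these cells in the marker differences was not tested. The contrast also holds the alike Grow 3 and Grow 4 and the normal-like values of Regress 1 on the TMZ side, and TMZ came with SAHA in all 3 Grow tumours that received it, so within Grow the 2 agents cannot be told apart.

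**Figure D4:**
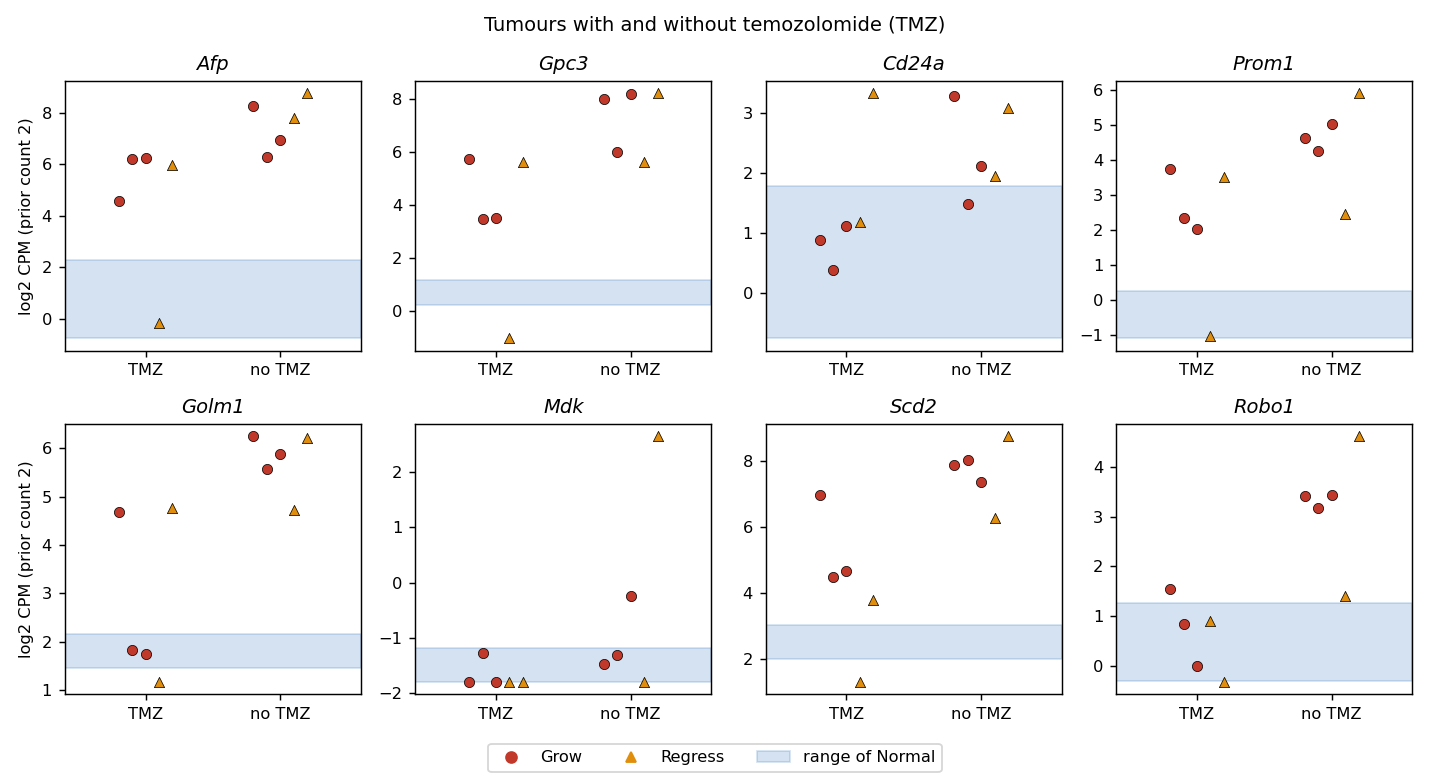
Level of each gene (log2 CPM, prior count 2, y axis) in the 5 tumours with TMZ and the 5 without (x axis), with circles for Grow, triangles for Regress and a blue band for the range of the 4 normal livers. The tumours with TMZ lie lower for most genes, and for Afp the sets do not overlap, with 74.6 CPM as the highest value with TMZ and 77.4 CPM as the lowest without.

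SAHA could be set against DMSO only within Grow, as 4 tumours with SAHA (Grow 2, Grow 3, Grow 4 and Grow 6) against Grow 1 and Grow 5. No marker and no feature (0%) was called by edgeR, all adjusted p of the markers were 1.00, with 0 markers and 325 features at an unadjusted p under 0.05, and DESeq2 called 0 markers and 52 features. Scd2 averaged 84.6 ± 72.2 CPM with SAHA (SD, n = 4) and 250.2 ± 20.9 CPM with DMSO (SD, n = 2), a log2 difference of -1.57 ± 1.26 (SE). The other 6 tested markers had log2 differences from -1.52 ± 0.79 (SE) for Cd24a to -0.68 ± 1.17 for Prom1. These values rested on single libraries: without Grow 1, Cd24a stood at -0.21, Afp at -0.04 and Gpc3 at 0.56. Without Grow 6, Gpc3 stood at -2.69, Robo1 at -2.57, Golm1 at -2.54 and Prom1 at -1.57. Grow 6, the only tumour with SAHA alone, had 291 CPM of Gpc3 and 32.3 CPM of Prom1, the highest of the Grow tumours for both.

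Across the 10 tumours the markers varied together. Of 28 pairs among the 8 genes, 16 had a Pearson r of log2 CPM past an adjusted p of 0.05 (two-sided permutation test with 100000 permutations, Benjamini-Hochberg over the 28 pairs), 14 did so by Spearman's rho, and 14 by both. The share of other gene pairs with such an r over these tumours was not computed, so it is unknown whether these counts are particular to the markers. The permutations also took the 10 tumours as exchangeable, without regard to group, TMZ or the alike Grow 3 and Grow 4. The 21 pairs without Mdk all had a positive r, from 0.354 to 0.968 with a median of 0.733. Gpc3 and Prom1 were the closest pair, with r = 0.968 (permutation p = 2e-05, adjusted 0.00028) and rho = 0.976 (permutation p = 3e-05, adjusted 0.00084) over 10 tumours. Without Regress 1 and Regress 4, the tumours farthest from the median of Gpc3, r was 0.911. Gpc3 and Golm1 had r = 0.918 (permutation p = 1e-05, the smallest these permutations can give, adjusted 0.00028) and rho = 0.903 (permutation p = 0.00072, adjusted 0.00504), and r was 0.935 without the same tumours. Scd2 and Robo1 had r = 0.812 (permutation p = 0.00451, adjusted 0.0158) and rho = 0.867 (permutation p = 0.00242, adjusted 0.00968), and r was 0.931 without Regress 1 and Regress 3.

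The relations of Afp rested on a few tumours. Afp and Gpc3 had r = 0.864 (permutation p = 0.00514, adjusted 0.016) and rho = 0.758 (permutation p = 0.015, adjusted 0.035), but r was 0.441 without Regress 1 and Regress 4. Afp and Prom1 had r = 0.812 (permutation p = 0.012, adjusted 0.0305) and rho = 0.685 (permutation p = 0.0353, adjusted 0.0581), and r was 0.149 without those tumours. Cd24a followed the others least, with r = 0.354 for Scd2 (permutation p = 0.318, adjusted 0.318) and rho = 0.297 (permutation p = 0.408, adjusted 0.423). Its closest marker was Golm1, with r = 0.701 (permutation p = 0.0252, adjusted 0.047) and rho = 0.745 (permutation p = 0.0174, adjusted 0.0375). Within the 6 Grow tumours alone, 7 pairs passed by r and 0 by rho, and r had a median of 0.837 over the 21 pairs. With 6 tumours rho could hardly pass. Prom1 and Robo1 had rho = 1.0 there and still an adjusted p of 0.0792 (permutation p = 0.00283). The 0 by rho thus does not tell whether the markers vary together within Grow. Without Regress 1, 12 pairs passed by r and 8 by both measures. With Grow 3 and Grow 4 averaged into 1 sample, 12 pairs passed by r, 18 by rho and 11 by both.

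**Figure D5:**
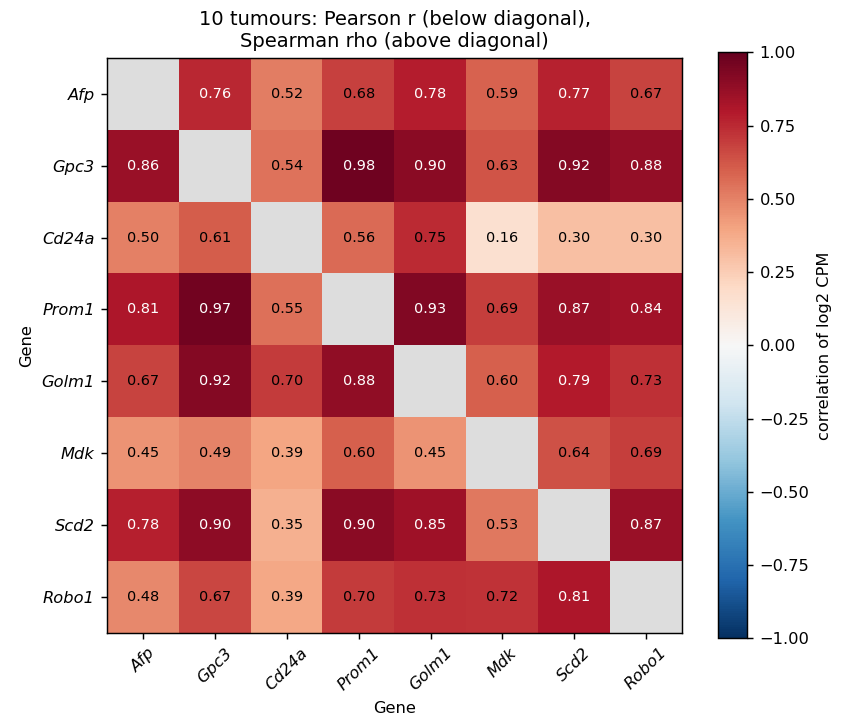
Correlation of log2 CPM over the 10 tumours for each pair of the 8 genes (both axes), with Pearson r below the diagonal and Spearman's rho above it. Gpc3 and Prom1 have the highest r, 0.968, and Cd24a has the lowest values with Scd2 and Robo1 among the 7 tested markers.

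For each marker, the 3 genes with the most similar profile over the 10 tumours were picked by Pearson r of log2 CPM among 10793 tested genes with a symbol and a mean log2 CPM of at least 1 (10794 for Mdk). They are a description of 10 libraries, with no test. For Afp these were Tubb6 (0.972), Rars (0.972) and Tlr1 (0.967). For Gpc3 they were Pdlim7 (0.981), Sh3bp1 (0.979) and Khdrbs1 (0.976), and Sh3bp1 (0.976) was also the closest to Prom1, with Calu (0.975) and Ano10 (0.971). Golm1 was closest to B4galt6 (0.991), Socs5 (0.990) and Ccdc125 (0.984), and Scd2 to Myadm (0.989), Enc1 (0.987) and Unc13b (0.987). Cd24a had lower values, at 0.931 for Cdkn2a, 0.908 for Smoc2 and 0.901 for Klf4. Robo1 had Arhgef40 (0.948), Gmip (0.934) and Smyd5 (0.932). Mdk had the collagen gene Col1a1 (0.924), Itga8 (0.921) and Pdgfrb (0.914), with Spearman's rho of 0.653, 0.498 and 0.511, so these rest on Regress 4. Regress 4 had 186 CPM of Col1a1 and no other library over 9.59 CPM, and its 12 stellate cell and fibroblast genes summed to 1327 CPM, against at most 429.7 CPM in the other 13 libraries. The part of these cells in the Mdk value was not tested.

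Regulators and neighbours of the Afp gene did not pass in tumours. Of 13 genes listed and tested, 0 were called in either direction, and their median log2 fold change was -0.27. Zhx2, a repressor that silences Afp in mouse liver after birth, stood at 12.2 ± 3.33 CPM in Grow (SD, n = 6), 8.31 ± 3.92 CPM in Regress (SD, n = 4) and 14.5 ± 5.56 CPM in Normal (SD, n = 4), a tumour difference of -0.53 ± 0.31 on the log2 scale (SE, adjusted p = 0.414, edgeR). Zbtb20, also a repressor of Afp after birth, stood at 2.94 ± 1.07 CPM in Grow (SD, n = 6), 1.68 ± 1.44 CPM in Regress (SD, n = 4) and 5.45 ± 3.61 CPM in Normal (SD, n = 4; -1.26 ± 0.53, SE, adjusted p = 0.216, edgeR). Alb and Afm lie beside Afp in the albumin gene cluster. Alb was at 26020 and 26481 CPM in Grow 3 and Grow 4, 50742 CPM in Regress 1, 111445 to 187356 CPM in the other 7 tumours and 28650 to 53813 CPM in Normal (1.48 ± 0.58, SE, adjusted p = 0.184, edgeR). The 3 tumours with normal-range or lower Alb thus included Grow 3 and Grow 4, whose Afp was far above normal. Afm differed by 0.50 ± 0.35 (SE, adjusted p = 0.542, edgeR).

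The families of the other markers held no called gene either. Of 9 glypican and release genes, 6 were tested and 0 called, with a median log2 fold change of 0.37. Notum, an enzyme that can release glypicans from the membrane and inactivates Wnt proteins, stood at 71.1 CPM in Grow 3 and 62.1 CPM in Grow 4. It stood at 36.7 CPM in Regress 4, 2.64 to 8.24 CPM in the other 7 tumours and 10.3 to 19.6 CPM in Normal (0.40 ± 0.87, SE, adjusted p = 0.906, edgeR). Of 13 midkine relatives and receptors, 10 were tested and 0 called (median -0.35). Pleiotrophin (Ptn), the closest relative of midkine, did not pass the filter and was at 1.89 and 2.00 CPM in Grow 3 and Grow 4 and below 1 CPM elsewhere. Of 13 Slit and Robo pathway genes, 5 were tested and 0 called (median 0.03), and the ligand Slit2 did not pass the filter. Of 11 desaturation and elongation genes, 9 were tested and 0 called (median -0.16), and of 10 Golgi genes, 9 were tested and 0 called (median -0.06). Without Regress 1, Gpc6 and Itga6 were called higher and Srebf1 lower among these lists (7.84% of all features called). Srebf1 was also called lower without Grow 2 (2.69% of features), and Ntn1 was called lower without Regress 4 (2.26%).

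Other fetal and progenitor genes and proliferation genes held called members. Of 28 fetal and progenitor genes, 27 were measured and 17 tested, and 3 rose in tumours: Akr1c18, which encodes a progesterone-metabolizing enzyme (7.91 ± 1.46, SE, adjusted p = 0.0236, edgeR), the trefoil peptide gene Tff3 (6.15 ± 1.24, SE, adjusted p = 0.0290, edgeR) and Cd34, a surface sialomucin of blood progenitors and endothelium (3.49 ± 0.82, SE, adjusted p = 0.0408, edgeR). None fell, and the median log2 fold change of the 17 was 1.90. Over all tested features 1.59% were called higher and 0.732% lower. Without Regress 1, 6 genes of the list were called, Sox4, Bex1 and Lcn2 being added (7.84% of all features called). With Grow 3 and Grow 4 summed there were 2 (Tff3 and Akr1c18), with 1.77% of features called. Without any 1 of the Normal livers, 0 were called (0% to 0.459% of features). Akr1c18 belongs to a family of near-identical genes, so its count is uncertain. Tff3 stood at 30.3 CPM in Regress 1, 77.6 to 1299 CPM in the other 9 tumours and 0.350 to 11.8 CPM in Normal. Unlike for Afp, every tumour thus lay above every normal liver, as for 1.09% of all tested features. Tff3 was named because it was called in this same contrast. Akr1c18 had 0 CPM in Regress 1, 60.7 to 309 CPM in the other 9 tumours and 0 to 1.40 CPM in Normal. The fetal growth factor gene Igf2 stood at 4.54 and 6.13 CPM in Grow 3 and Grow 4, 0.197 to 2.40 CPM in the other 8 tumours and 0.175 to 0.527 CPM in Normal (1.90 ± 0.87, SE, adjusted p = 0.268, edgeR). The fetal gene Dlk1 was read only in Grow 4 (0.236 CPM) and Regress 4 (3.67 CPM). Of the progenitor markers, Epcam stood at 56.4 CPM in Regress 3 and at most 4.37 CPM elsewhere (2.71 ± 1.29, SE, adjusted p = 0.289, edgeR). Sox9, a factor of duct and progenitor cells, was at 0 and 0.236 CPM in Grow 3 and Grow 4, 3.56 to 23.7 CPM in the other 8 tumours and 0.436 to 3.29 CPM in Normal (2.19 ± 1.04, SE, adjusted p = 0.287, edgeR).

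Of 20 proliferation genes, all were tested, with a median log2 fold change of 2.83. In tumours 10 rose (1.59% of all features were called higher) and 0 fell (0.732% were called lower). Among them were the cyclin gene Ccnb1 (4.96 ± 1.13, SE, adjusted p = 0.0396, edgeR), the mitotic kinase gene Plk1 (4.69 ± 1.08, SE, adjusted p = 0.0397, edgeR), Ccna2 (3.88 ± 0.78, SE, adjusted p = 0.0290, edgeR) and Ccnb2 (3.76 ± 0.76, SE, adjusted p = 0.0290, edgeR). Mki67 did not pass (3.94 ± 1.11, SE, adjusted p = 0.0722, edgeR). It stood at 5.31 to 18.1 CPM in Grow, at 1.77, 0, 1.80 and 21.3 CPM in Regress 1 to 4 and at 0 to 1.20 CPM in Normal. Without Regress 1, 16 proliferation genes were called, Mki67 among them (7.84% of all features called). With Grow 3 and Grow 4 summed there were 7 (1.77% of features). There were 5 without Grow 1 or Regress 3 (1.32% and 0.938%) and 4 without Grow 5 or Grow 6 (0.972% and 0.799%). Without Normal 2 there was 1 (Cdk1), with 0.459% of features called. Without Normal 1, Normal 3 or Normal 4 there were 0, with 0% to 0.111% of features called. Regress 2 combined 222 CPM of Afp with 0 CPM of Mki67.

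Markers of other cell types were followed beside the fetal genes. In bulk tissue, more cells of a type and more RNA per cell cannot be told apart. Of 10 cholangiocyte and ductular genes, 7 were tested and 1 rose, Tspan8, a tetraspanin (5.97 ± 1.43, SE, adjusted p = 0.0443, edgeR). The list summed to 41.5 to 627 CPM in Grow, 36.6 to 532 CPM in Regress and 25.5 to 39.6 CPM in Normal. The duct keratin gene Krt19 stood at 34.8 CPM in Regress 3 and at most 3.66 CPM elsewhere. Of 12 stellate cell genes 1 rose (Tagln), and of 10 endothelial genes 2 rose (Lyve1 and Cd34). Of 12 hepatocyte genes 1 fell (Tat) and 0 rose. Macrophage (9 tested), B cell (5), erythroid (3), neutrophil (2) and T and NK cell (2) genes had 0 called. Over all tested features 1.59% were called higher and 0.732% lower. Without Regress 1 (7.84% of all features called), 5 stellate cell genes were called higher and 3 lower. In that fit 2 duct genes were called higher (Tspan8 and Cldn7) and 1 erythroid gene lower (Alas2). With Grow 3 and Grow 4 summed (1.77% of features), the calls of Tagln, Lyve1, Cd34 and Tat were lost. Without any 1 of the Normal livers, 0 genes of these lists were called (0% to 0.459% of features). The part of duct or progenitor cells in the Prom1, Cd24a and Golm1 values was not tested.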

How the data were processed

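Per the labels' protocols, frozen tissue was extracted with RNeasy columns and sequenced from TruSeq RNA v2 libraries. Such libraries carry no strand information, which leaves overlapping and antisense genes unresolved. The authors deposited estimated counts, that is expected counts with decimals, in 35230 transcript rows. Salmon 0.3.1, edgeR 3.14.0 and the build mm9 appear in the submitters' processing notes with no role stated, and for the transcript annotation nothing is given in the sources used. An empty column (1) was not used.

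Rows were named through a RefSeq table of GRCm38.p6 (26077 rows) or GENCODE M21 (148 rows), used for names, lengths and promoters only, and 9005 unmatched rows stayed features of their own. Counts were summed per gene and rounded. Tests used edgeR's quasi-likelihood method (edgeR 4.0.16, limma 3.58.1, R 4.3.3) with TMM normalization, filterByExpr, robust dispersions and a call at a Benjamini-Hochberg adjusted p under 0.05 over 12300 features. All 14 samples entered the fits, TMZ as a term beside the group and SAHA by splitting Grow. Standard errors are the log2 fold change over the square root of F. CPM use the TMM-adjusted library size, and a prior of 2 counts entered log2 values. Dispersion came to 0.484 as a biological coefficient of variation. Library totals were 4.71 to 13.39 M, so a gene at 1 CPM rests on few counts, and limits from 0 counts cover counting error only. The code was tested on simulated counts. DESeq2 1.42.0, limma-voom, other scaling and filters, left-out libraries, a length correction and a replicate block were tried as alternatives. The markers and lists were chosen with earlier results of these data known. The rule named the 8 markers, up to 4 called genes per pathway list, 13 fixed genes (Zhx2, Zbtb20, Alb, Afm, Igf2, Dlk1, Epcam, Sox9, Scd1, Ptn, Slit2, Notum and Mki67) and the 3 genes most like each marker. Tspan8, Cldn7, Krt19, Tagln, Lyve1, Tat, Alas2, Gpc6, Itga6, Srebf1, Ntn1, Sox4, Bex1, Lcn2, Cdk1 and the Col1a1 level of Regress 4 were picked after their values were seen. H19 was listed but had no measured row.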

Additional observations from a re-analysis of the deposited data

Results flagged for a closer look

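For 3 values of Mdk, the gap between 1 library and the nearest other library of its group was large against the whole range of that group. The values were 0.553 CPM in Grow 6, 5.93 CPM in Regress 4 and 0.149 CPM in Normal 3. They rest on 3 counts, 42 counts and 1 count, and the remaining Regress and Normal libraries had 0 counts. In all 24 groups of libraries were looked at, 8 genes in 3 groups, and chance flags about 1 in 20 such groups. That rate does not hold where all other libraries of a group tie at 0 counts, as for Mdk in Regress and Normal. There a single library with any count is always flagged. Regress 4 also had the highest level of Afp, Gpc3, Prom1, Scd2 and Robo1 of the 14 libraries, and none of these values was set apart from the other Regress libraries by this measure.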

How the results depend on the processing

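The direction of all 7 tested markers against Normal was kept under every alternative run, in 175 values for tumours, 161 for Grow and 161 for Regress, and all 161 TMZ differences stayed negative. The number of called markers moved, and the share of all features called is given as a percentage beside it. In tumours against Normal (3, 2.32%) it was 5 with DESeq2 (8.58%), 5 with the length trend removed (5.75%) and 6 with DMSO or buffer tumours alone (7.5%). It was 5 with Regress 1 left out and Grow 3 and Grow 4 summed (7.91%), an alternative chosen after seeing the data. It was 0 with limma-voom and without the low-count filter (1.03% each), and without Normal 4 and Regress 2 (0%). It ranged from 0 to 5 when each library was left out in turn (0% to 7.84%). In Grow against Normal (1, 1.76%) it was 2 with DESeq2's size factors (2.01%) and 5 with DESeq2 (8.24%). It was 4 with the length trend removed (4.8%) and 5 with that added alternative (4.13%). It was 0 with limma-voom (0.756%), without the filter (0.795%), without Normal 4 and Regress 2 (0.143%), and with Grow 3 and Grow 4 summed (0.927%). With libraries left out it ranged from 0 to 5 (0.0317% to 5.2%). In Regress against Normal (0, 0.0244%) it was 5 with DESeq2 (5.79%), 1 with the length trend removed (1.36%) and 5 with the added alternative (5.34%). With libraries left out it ranged from 0 to 5 (0% to 5.28%). For TMZ (0, 0%) it was 4 with DESeq2 (3.77%) and 1 with the length trend removed (0.692%). With libraries left out it ranged from 0 to 4 (0% to 6.01%). Of the marker pairs, 16 passed by r over all tumours, 7 within Grow, and 12 both without Regress 1 and with Grow 3 and Grow 4 averaged. Called genes of 2 other lists were counted with libraries left out or summed, also chosen after seeing the data. Fetal and progenitor genes (3) ranged from 0 to 6 with libraries left out (0% to 7.84% of all features called). They were 0 without Normal 4 and Regress 2 (0%) and 6 with the added alternative (7.91%). Proliferation genes (10) ranged from 0 to 16 with libraries left out, beside the same shares of all features, and were 0 without Normal 4 and Regress 2. On simulated counts of tumours against Normal (12082 genes), 23.1% of DESeq2's calls were false, against 6.54% of edgeR's and 5.66% of limma-voom's. These counts were drawn with edgeR's own estimates of the spread and held no outlying or alike libraries. The setting may thus favour edgeR, and the rates need not hold for the calls on the real counts. Replicate numbers did not pair the samples: deviations of 12 same-numbered pairs correlated at -0.52 to 0.20, over 0.1 in 2 of them. With a replicate block edgeR called 0 markers and 0 features in tumours and in Grow against Normal (1312 and 1076 features at an unadjusted p under 0.05).

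Uncalled Regress against Grow differences changed sign under some settings: with limma-voom Afp was -0.88, Prom1 -0.97 and Robo1 -0.083, with the replicate block Gpc3 was 0.63, Prom1 -0.28 and Golm1 0.86, without Normal 4 and Regress 2 Scd2 was 0.091, and with the added alternative Golm1 was 0.011 and Scd2 0.098. With libraries left out in turn, the log2 difference ranged from -0.24 to 1.29 for Afp, -1.82 to 0.31 for Gpc3, -1.58 to 0.65 for Prom1, -0.96 to 0.27 for Golm1, -2.17 to 0.32 for Scd2 and -1.91 to 0.71 for Robo1. The SAHA difference of Gpc3 ranged from -2.69 to 0.56. Except where fewer samples or features were tested by construction, the cause was not tested. Depth limits Mdk, which had 0 counts in 8 libraries, and Robo1, Cd24a and Prom1 in normal liver, at most 3.15 CPM in any of these libraries. It also limits Afp and Gpc3, whose differences from normal liver were the largest. In Normal 1 to 4, Afp had 8, 5, 2 and 31 counts and Gpc3 had 11, 5, 11 and 7. The size of their log2 differences thus rests on few counts in normal liver.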
